A study of Homo sapiens with 3 samples.

Results

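The 6193 ETS1 peaks described here lay at CpG-rich promoters of protein-coding genes transcribed in 1 direction. They were 22.97% (95% Wilson interval 22.5 to 23.5) of the 26958 consensus peaks on chromosomes 1 to 22 and X, in a list of 26970 peaks in all. A peak was taken when its midpoint was at most 500 bp from the transcription start site (TSS) of a canonical protein-coding transcript, when no such gene belonged to a head-to-head pair with TSSs within 1000 bp, and when the 1000 bp window centred on the TSS had a GC content of at least 55% and a CpG observed/expected ratio of at least 0.6. This ratio compares the number of CpG dinucleotides with the number that the C and G content alone would give. Of the 8296 peaks this close to a canonical coding TSS, the members made up 74.7%, while 813 lay at head-to-head promoters and 1290 at promoters poorer in CpG.

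ETS1 binding was mapped by chromatin immunoprecipitation and sequencing (ChIP-Seq) in untreated SCC25 cells, an established tongue squamous cell carcinoma line. Of the 3 samples, 2 were precipitated with a Santa Cruz antibody against ETS1 (C20) and 1 with a Bethyl antibody against the same protein (501A). They were merged by the IDR procedure, which keeps peaks with reproducible ranks, into 1 list of positions on hg19. That list gives no score, no height and no value per sample, so there was no spread between replicates, the depth behind a single peak is unknown, and the identity of the cells could not be checked against marker genes. The intervals below therefore cover counting error alone, and neither peaks nor promoters are independent replicates of the experiment.

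ETS factors share a winged helix-turn-helix domain that recognises the core GGAA, and for ETS1 the bases around it decide how tightly the protein holds the DNA. Most broadly expressed human genes start from CpG islands, which are rich in G, C and unmethylated CpG, usually lack a TATA box and often carry sites for ETS, SP/KLF, NRF1, YY1 and NFY proteins. At such promoters ETS sites are read by many members of the family, GABPA and ELK proteins among them, and ETS1 is also known for composite sites with RUNX and AP-1 at enhancers.

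The sequences below show the ETS word CCGGAAG or its reverse complement just upstream of the TSS. Among the 64 words of this length with GGAA at the same place, it had the highest share of promoters with a peak, at 83.6%. The longer word CCGGAAGT, which contains it, had a higher share, at 89.1%. Most promoters with a peak lack CCGGAAG. All are from GRCh37, the assembly behind hg19, written 5′ to 3′ on the strand of the gene, with each copy of the word in capitals. The first 5 are the 100 bases before the TSS of promoters with a peak, chosen for carrying such sites there and no annotated exon. They belong to MYL12B, a regulatory light chain of non-muscle myosin, MRPL20, a protein of the mitochondrial ribosome, COX5B, a subunit of cytochrome c oxidase, GINS2, a component of the replicative helicase, and ELK4, itself an ETS factor. A further COX5B copy, centred at -2 bp, runs over the TSS and is not complete in the stretch shown.
MYL12B, chr18:3262031-3262130, plus strand: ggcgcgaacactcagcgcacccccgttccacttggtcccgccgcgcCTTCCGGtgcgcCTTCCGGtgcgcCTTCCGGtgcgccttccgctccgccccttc
MRPL20, chr1:1342674-1342773, minus strand: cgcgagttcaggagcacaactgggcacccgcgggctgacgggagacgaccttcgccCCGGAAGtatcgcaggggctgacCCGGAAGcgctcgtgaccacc
COX5B, chr2:98262425-98262524, plus strand: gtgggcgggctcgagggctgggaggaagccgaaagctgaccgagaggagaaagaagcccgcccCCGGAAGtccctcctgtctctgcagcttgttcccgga
GINS2, chr16:85722561-85722660, minus strand: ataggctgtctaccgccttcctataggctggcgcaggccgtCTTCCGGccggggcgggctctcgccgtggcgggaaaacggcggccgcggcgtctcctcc
ELK4, chr1:205601140-205601239, minus strand: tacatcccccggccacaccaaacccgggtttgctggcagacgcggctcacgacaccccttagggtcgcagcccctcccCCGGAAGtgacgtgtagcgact

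Shorter windows of 27 bases, centred on 1 site, show how copies were arranged. In PSMG3, an assembly chaperone of the proteasome, and TPRKB, a subunit of a tRNA-modifying complex, copies on opposite strands overlapped. In POLA1, the catalytic subunit of DNA polymerase alpha, copies on opposite strands abutted. VMA21, an assembly factor of the vacuolar proton pump, had separate antisense copies and RPL6, a protein of the large ribosomal subunit, separate sense copies, of which 1 each is shown.
PSMG3, chr7:1609708-1609734, minus strand: gccctgaCTTCCGGAAGgtggacggaa
TPRKB, chr2:73964474-73964500, minus strand: gccatcgCTTCCGGAAGttgtgagctt
POLA1, chrX:24711960-24711986, plus strand: ggcCTTCCGGCCGGAAGtccgcagcct
VMA21, chrX:150565650-150565676, plus strand: cgaacgggcaCTTCCGGcgcgaaccgc
RPL6, chr12:112847414-112847440, minus strand: tgcttatagaCCGGAAGccgggacctt

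Promoters of the same CpG-rich class without a peak are shown for contrast. They are those of SOX11 and SOX1, transcription factors of neural progenitors, neither of which held CCGGAAG in these 100 bases.
SOX11, chr2:5832416-5832515, plus strand: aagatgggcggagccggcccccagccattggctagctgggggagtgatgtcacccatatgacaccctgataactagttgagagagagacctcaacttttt
SOX1, chr13:112721363-112721462, plus strand: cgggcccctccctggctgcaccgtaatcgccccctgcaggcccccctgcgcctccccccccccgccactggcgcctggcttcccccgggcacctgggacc

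Of the 10384 CpG-rich unidirectional TSSs in the genome, 6381 had a peak midpoint within 500 bp, which is 61.5% (60.5 to 62.4). Over all 19737 canonical coding TSSs the share was 46.9%. It was 17.8% (16.9 to 18.7) at the 7487 CpG-poor unidirectional TSSs and 82.4% (80.6 to 84.1) at the 1866 head-to-head TSSs. The CpG-rich class thus stood 43.7 points above the CpG-poor class (42.4 to 44.9) and 21.0 points below the head-to-head class in these data, a difference of -21.0 points (-22.9 to -19.0). Head-to-head TSSs came in pairs, and 1 midpoint could count for both, with 813 peaks for 1538 such TSSs with a midpoint. The intervals count the paired TSSs as separate. The member peaks belonged to 6380 TSSs and 6406 genes. Of these TSSs, 8 had 2 member peaks and none had more, and 216 peaks were near more than 1 gene. A further 6 TSSs of the class had a midpoint that did not count as a member. Its peak was classed as head-to-head or CpG-poor through another TSS within 500 bp. Conversely, 5 TSSs with a member peak were not CpG-rich themselves but shared the peak with one that was.

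The word unidirectional held for protein-coding genes only. A TSS of a noncoding gene lay on the opposite strand within 1000 bp upstream of 1433 of the 6381 promoters with a peak, or 22.5%, and of 549 of the 4003 without one, or 13.7%, a difference of 8.74 points (7.25 to 10.2). Seen the other way, 72.3% of the 1982 promoters with such a noncoding partner had a peak and 58.9% of the 8402 without. A TATA box, taken as TATAAA on the gene strand from 45 to 15 bp before the TSS, was rare in both groups, at 1.43% with a peak and 2.72% without, and scarcer where there was a peak (difference -1.297 points, -1.91 to -0.735).

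No midpoint within 500 bp did not always mean no binding. Of the 4003 promoters without a midpoint, 820, or 20.5%, were covered at the TSS by a peak whose midpoint lay further away. Those 798 peaks were wide, with a median of 2444.5 bp (quartiles 1911 and 3161.5), and in 71.8% of the 820 cases (68.7 to 74.8) the midpoint lay inside the gene. Their width follows in part from this choice, since only a wide peak can cover a TSS more than 500 bp from its midpoint. For 2931 of the 4003, or 73.2%, no peak reached within 2000 bp of the TSS. In the sentences that follow, promoters without a peak are those without a midpoint within 500 bp, and values for covered TSSs are given for some comparisons only.

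The members nearest the thresholds were as follows. Just inside the GC threshold were the promoters of POLR3B and DERA, both at 55%, and just outside those of AP2B1 and GPKOW, both at 54.9%. For the CpG ratio, DCTN3 (0.6002) and RSPH3 (0.6004) were the nearest inside and SPATA24 (0.599) and PSMB8 (0.599) the nearest outside. Midpoints of SLC45A4 and ZNF697 lay 500 bp downstream of the TSS and were kept, while those of RRBP1 and USP42, at -501 bp, were not. The closest head-to-head partners tolerated were 1011 bp from ABHD14A-ACY1 and 1018 bp from USH1G, and the farthest refused were 995 bp from SMIM7 and 999 bp from HNRNPA2B1.

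Inside the class, base composition and the share with a peak were related in opposite ways for most of the range of the 2 measures that define it. There the share fell from 70.8% (68.6 to 72.9) of the 1777 promoters with 55 to 60% GC to 47.8% (44.4 to 51.1) of the 848 with 75 to 80% GC. With the CpG ratio it rose from 53.6% (51.2 to 56.0) of the 1659 promoters at 0.6 to 0.7 to 65.6% (63.3 to 67.8) of the 1767 at 0.9 to 1.0. In the last bin, 1.0 to 1.1, it was 60.4% (54.6 to 66.0) of 278. Across all unidirectional promoters, the share climbed steeply below the thresholds, from 13.7% (11.3 to 16.5) at a ratio of 0.4 to 0.5 through 32.7% (29.9 to 35.8) at 0.5 to 0.6. By GC it climbed from 15.6% at 45 to 50% to 57.6% at 65 to 70%, and was 36.2% at 80 to 85%. All these shares count midpoints within 500 bp, and member peaks were wider at higher GC. Shares of covered TSSs by composition were not computed, so whether they fall with GC too was not tested.

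**Figure D1:**
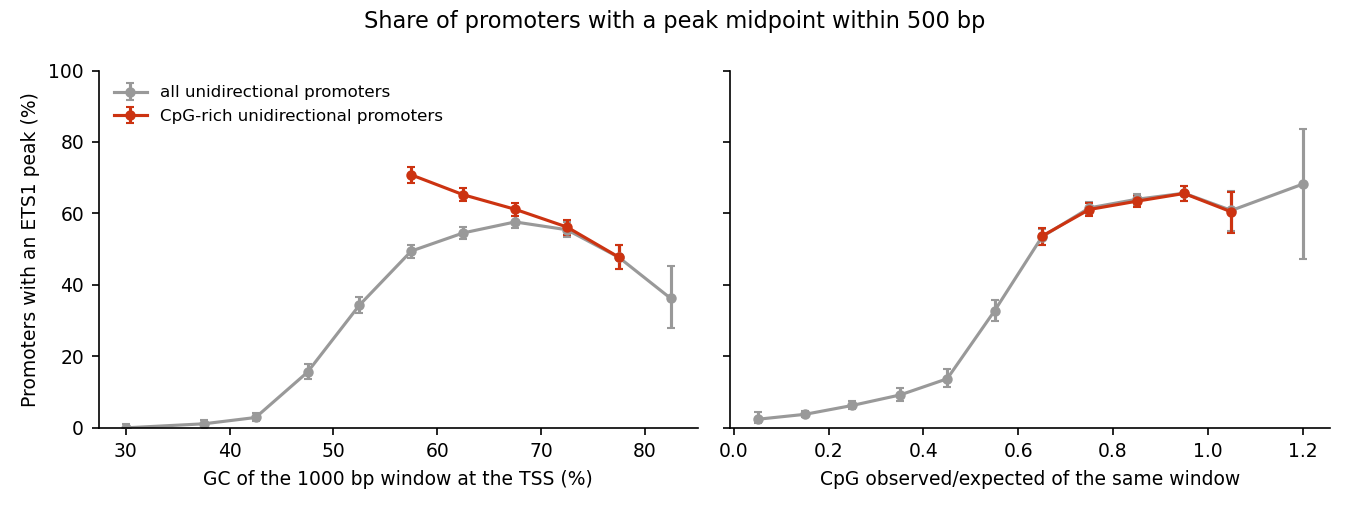
Share of promoters with an ETS1 peak midpoint within 500 bp of the TSS (vertical axis, percent) by GC content (left, percent) and by CpG observed/expected ratio (right) of the 1000 bp window at the TSS. Points are bins, bars are 95% Wilson intervals, grey is all unidirectional promoters and red the CpG-rich class. In that class the share fell with GC from 70.8% to 47.8%. With the CpG ratio it rose from 53.6% to 65.6% at 0.9 to 1.0 and was 60.4% at 1.0 to 1.1.

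Member peaks were broad, and more midpoints lay inside the gene than upstream of it. Their width had a median of 1354 bp (quartiles 1050 and 1764, range 304 to 7111). Peaks at head-to-head promoters had a similar median of 1385 bp, those at CpG-poor promoters 874.5 bp, and the 12980 peaks more than 1500 bp from any annotated TSS 706 bp. The TSS itself was covered by 6131 of the 6193 member peaks, which follows largely from their width and the limit of 500 bp on the midpoint. The midpoint lay at a median of +88 bp on the gene strand (quartiles -53 and 216), and 4109 midpoints, or 66.3% (65.2 to 67.5), were downstream of the TSS. Peaks reached a median of 582 bp upstream and 760 bp downstream. Of the midpoints, 33.3% were upstream of the TSS, 27.8% in an untranslated or noncoding exon part of the canonical transcript, 24.8% in an intron and 14.0% in coding sequence.

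Width followed the GC content of the promoter. The median width rose from 993.5 bp (quartiles 850 and 1217.75) at 55 to 60% GC to 1467 bp (1202.5 and 1835) at 65 to 70% and 1834 bp (1350.75 and 2312.5) at 75 to 85%. Across the 6193 peaks, Spearman's rho of width with GC was 0.511, and with the CpG ratio 0.166. These are descriptions across peaks of 1 pooled list, which share the libraries. The relation with GC was as large among the 4876 peaks without CCGGAAG from -200 to +100 bp (0.497) as among the 1056 with 1 copy (0.493).

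**Figure D2:**
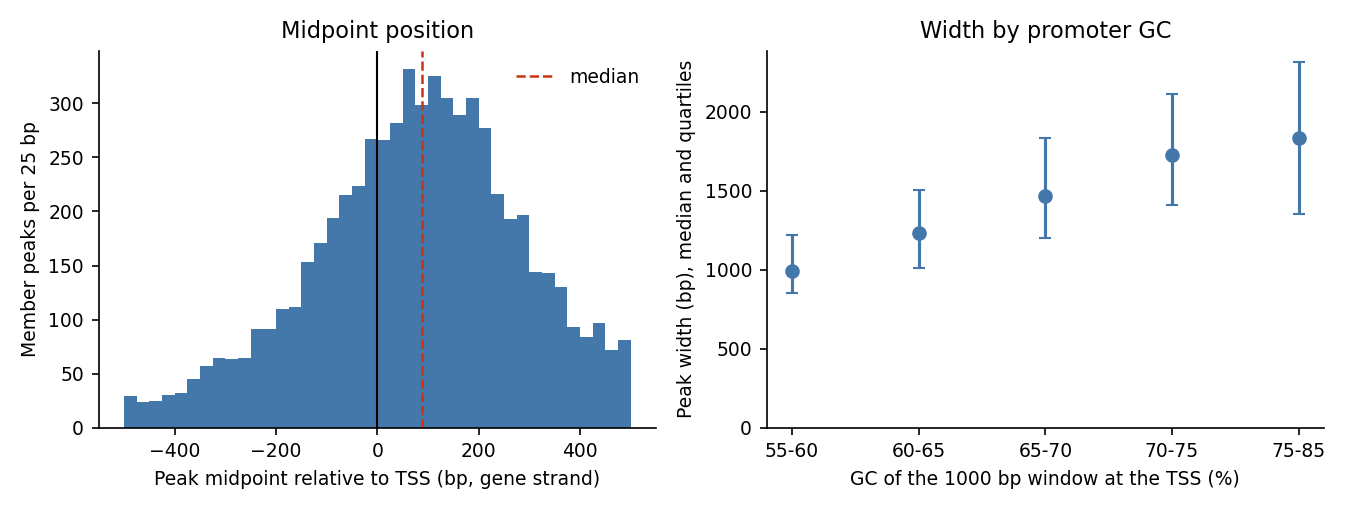
Left, number of member peaks by the position of the midpoint relative to the TSS (bins of 25 bp, gene strand), with the median of +88 bp dashed. Right, median width in bp by GC of the 1000 bp window at the TSS, with bars from the lower to the upper quartile, rising from 993.5 to 1834 bp.

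The 5 widest member peaks were at CYP26B1 (7111 bp), a retinoic acid hydroxylase, PLEKHH3 (6981 bp), GSE1 (6937 bp), a subunit of the CoREST-like BHC complex, the unnamed gene ENSG00000289747 (6152 bp) and ZMIZ1 (6069 bp), a SUMO ligase-like coregulator. Of these, GSE1 alone had a CCGGAAG copy between -200 and +100 bp. The 5 narrowest were at the readthrough gene ZNF286A-TBC1D26 (304 bp), CARM1 (337 bp), an arginine methyltransferase, GPR155 (342 bp), TNFSF9 (343 bp), the ligand of 4-1BB, and TRAF3 (349 bp), a signalling adaptor, and none of them had one. The 8 promoters with 2 member peaks were those of ABCC1, APH1B, PGRMC2, PRDX6, SCNN1G, UVSSA, WDR91 and ZFP69B. The peak nearest the TSS there was 448 to 742 bp wide, below the lower quartile of all member peaks, and its midpoint was 133 to 460 bp from the TSS.

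The ETS word CCGGAAG was commoner in promoters with a peak. Between -200 and +100 bp it was present on either strand in 1372 of 6381 promoters with a peak, or 21.5%, and in 269 of 4003 without, or 6.72%, a difference of 14.8 points (13.5 to 16.04). Over all canonical coding promoters 13.8% held it. Compared within strata of GC (2 points wide) and CpG ratio (0.1 wide), the difference was 13.4 points (12.2 to 14.7). The longer CCGGAAGT, which contains the first word, was in 9.48% against 1.85%, and the shorter CGGAAG, contained in both, in 37.2% against 16.2%. The bare core GGAA was in nearly every promoter, at 94.0% and 86.7%.

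The presence of CCGGAAG went with a higher share of promoters with a peak. It was 57.3% (56.3 to 58.3) of the 8743 promoters without the word, 82.5% (80.4 to 84.4) of the 1343 with 1 copy, 88.6% (84.1 to 91.9) of the 254 with 2 and 90.7% (78.4 to 96.3) of the 43 with 3. The intervals for 1 and 2 copies and those for 2 and 3 overlapped. Overlap of separate intervals does not exclude a difference, here or below. The 1 promoter with 4 copies, of the nuclear receptor NR1H2, had no midpoint within 500 bp, but its TSS lay inside a peak of 1816 bp (chr19:50879345-50881160) whose midpoint was 539 bp downstream. A single copy between -50 and +25 bp went with a peak in 84.2% of 728 promoters (81.4 to 86.7), one further upstream in 81.0% of 506 (77.4 to 84.2) and one further downstream in 77.98% of 109 (69.3 to 84.7), with intervals that overlapped. Overlapping copies on opposite strands, as in PSMG3 and TPRKB, were found in 22 promoters, of which 19 had a peak, against 245 of the 276 with 2 or more copies arranged otherwise.

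**Figure D3:**
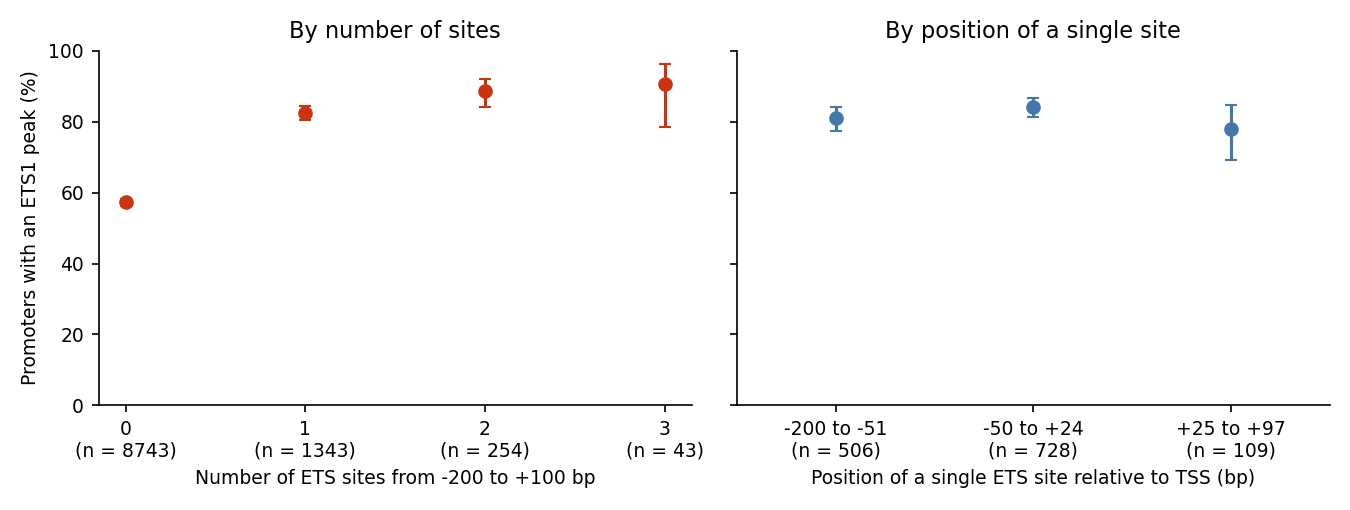
Share of CpG-rich unidirectional promoters with an ETS1 peak (vertical axis, percent) by the number of CCGGAAG copies from -200 to +100 bp (left; the single promoter with 4 copies is not drawn) and by the position of the copy in promoters with exactly 1 (right). Bars are 95% Wilson intervals, the share is 57.3% without a copy and 82.5% with 1, and the 3 positions on the right overlap.

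Shares differed with the base before the core. Among the 64 words with 2 bases before GGAA and 1 after, the 16 with C directly before the core were 13 of the 16 with the highest shares of promoters with a peak. Their shares had a median of 74.2% (range 66.7 to 83.6), against 64.96% (55.04 to 78.1) for the other words. CCGGAAG ranked 1, followed by CCGGAAA (80.5%, 77.2 to 83.5) and ACGGAAG (79.0%, 74.3 to 83.0), and TTGGAAA ranked last (55.04%, 48.7 to 61.2). Promoters with CGGAA had a peak in 72.9% of cases (71.6 to 74.1) and those without in 50.5%, a difference of 22.3 points (20.5 to 24.1). For AGGAA the difference was 8.93 points (7.06 to 10.8), for GGGAA 4.66 (2.72 to 6.61) and for TGGAA 2.84 (0.804 to 4.86). Promoters may hold several of these words, so the shares are not independent. The bases flanking CCGGAAG also went with different shares, from 65% (49.5 to 77.9) of 40 promoters with TCCGGAAGA to 91.5% (85.8 to 95.1) of 142 with ACCGGAAGT.

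The copies were packed against the TSS. In promoters with a peak, the 25 bp just before the TSS held 64.6 copies per 1000 promoters, against 4.70 in bins more than 400 bp away. In promoters without a peak the same bins held 16.2 and 3.25. The density fell from 41.1 per 1000 between 0 and 25 bp to 6.90 between 25 and 50 bp. Sites lay more often in the sense orientation than the reverse, 930 of 1675 copies from -200 to +100 bp, or 55.5% (53.1 to 57.9). In promoters without a peak it was 49.5% (43.98 to 55.1), and the difference of 6.01 points included 0 (-0.0314 to 12.03). The lean was greatest between -50 and 0 bp, at 60.8% (57.1 to 64.4) of 686 copies, against 43.3% (34.2 to 52.9) of 104 copies in promoters without a peak, a difference of 17.5 points (7.23 to 27.3). This was 1 of 4 stretches compared, and the differences in the other stretches included 0. From -200 to -50 bp the 628 copies were close to even, at 51.9% (48.003 to 55.8).

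**Figure D4:**
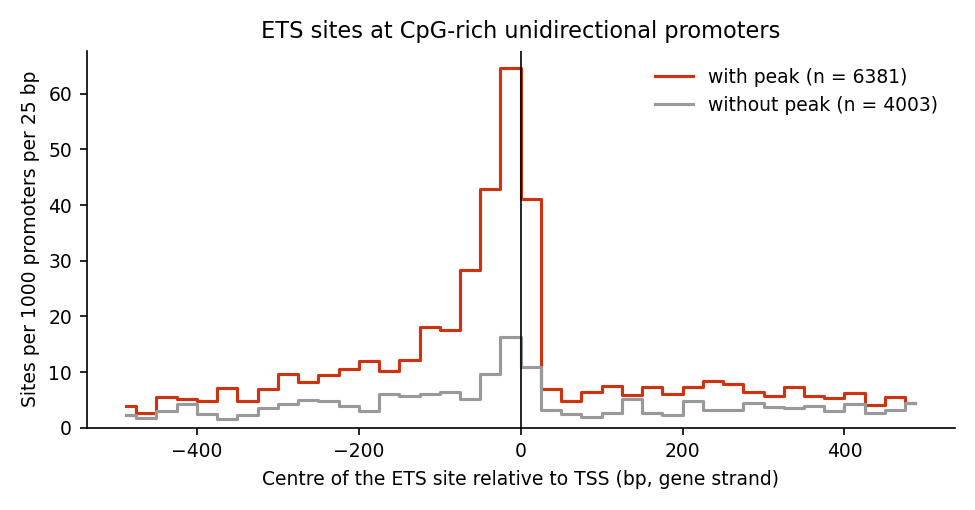
Density of CCGGAAG (either strand) around the TSS in CpG-rich unidirectional promoters, in copies per 1000 promoters per 25 bp, for the 6381 with a peak (red) and the 4003 without (grey). Both lines are highest in the 25 bp before the TSS, at 64.6 and 16.2, and drop sharply 25 bp after it.

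Distances of the midpoint from the site and from the TSS are given as a description, since members were chosen by a midpoint within 500 bp of the TSS, which limits the second distance and not the first. Among 1510 member peaks near 1 gene with exactly 1 CCGGAAG copy within 500 bp of the TSS, the midpoint was a median of 181 bp from the site (quartiles 87 and 306) and 143 bp from the TSS (70.25 and 239.75). The copy was inside the peak in 98.9%. With sites 200 to 500 bp upstream, the median midpoint was at 22 bp (quartiles -131 and 183.5), and with sites 200 to 500 bp downstream at 140 bp (-22.5 and 263). Spearman's rho of site and midpoint position was 0.181 across these peaks. Of all member peaks, 691 of 6193, or 11.2% (10.4 to 11.97), had CCGGAAG in the 200 bp at the midpoint, against 39.4% in the whole peak. At CpG-poor promoters 14.0% had it at the midpoint and at head-to-head promoters 18.3%. Among peaks more than 1500 bp from a TSS it was 3.33%, which made the members 7.83 points higher (7.004 to 8.69).

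Many member promoters lacked CCGGAAG. Of the 5961 member peaks assigned to 1 gene and alone at its TSS, 3952, or 66.3% (65.1 to 67.5), had no CCGGAAG copy within 500 bp of the TSS. Of the 6381 promoters with a peak, 2985, or 46.8%, held CGGAAG or CGGAAA between -200 and +100 bp, and 53.2% (52.0 to 54.4) held neither. The looser CGGAA was in 3698 of the 6381, and CGGAAG was in 69.1% of the member peaks taken over their whole length. A peak was at 52.4% (51.2 to 53.6) of all promoters with neither.

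Other promoter words differed less. In the same -200 to +100 bp windows, the YY1 word AAGATGG was in 8.15% of promoters with a peak and 4.05% without, a difference of 3.55 points within strata of composition (2.63 to 4.47). The NRF1 word GCGCATGC was in 6.33% and 3.35% (2.25 points within strata, 1.42 to 3.08). For the CREB/ATF word TGACGTCA the stratified difference was 0.912 points (0.238 to 1.59) and for the E-box CACGTG 1.66 (0.497 to 2.83). The SP/KLF word GGGCGGG, the commonest of all, was scarcer where there was a peak, at 64.3% against 70.6%, and the stratified difference was -1.91 points (-3.71 to -0.105). Those for CCAAT of NFY (0.597, -1.26 to 2.45), TGANTCA of AP-1 (0.583, -0.0278 to 1.19) and TGTGGT of RUNX (-0.00472, -0.969 to 0.960) included 0. Each word was searched on both strands. Over all canonical coding promoters AAGATGG was in 6.77%, GCGCATGC in 4.05%, TGACGTCA in 2.59%, CACGTG in 8.34%, GGGCGGG in 46.9%, CCAAT in 34.3%, TGANTCA in 4.96% and TGTGGT in 10.4%.

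Words of AP-1 and RUNX were rarer in member peaks than in distal peaks, those more than 1500 bp from any annotated TSS, inside genes or not. TGANTCA was in the 200 bp at the midpoint of 1.47% of member peaks and 24.4% of the distal peaks, and TGTGGT in 4.78% and 16.6%. The ETS variant AGGAAG was in 20.9% of member peaks and 36.1% of the distal peaks. Peaks at head-to-head promoters were close to the members, at 1.48% for TGANTCA, 18.6% for AGGAAG and 5.17% for TGTGGT. The word CGGAAG was in 21.9% of member peaks and 7.40% of the distal peaks. The windows differed in composition, with a median GC of 71% at member midpoints and 54.5% at distal ones.

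Promoters were also grouped by the ETS word together with the YY1 or NRF1 word. A peak was found at 90.4% (84.3 to 94.3) of the 136 promoters with both AAGATGG and CCGGAAG, at 72.7% (68.8 to 76.3) with AAGATGG alone, at 83.0% (81.0 to 84.8) with CCGGAAG alone and at 56.3% (55.2 to 57.3) with neither. With GCGCATGC the corresponding shares were 80.7% (72.5 to 86.9) of 114, 73.6% (69.2 to 77.6), 83.8% (81.9 to 85.6) and 56.5% (55.4 to 57.5). Thus each of the words alone went with more peaks than neither, and the intervals for CCGGAAG alone overlapped those for CCGGAAG with either other word. Such overlap does not exclude a difference, and intervals of these differences were not computed.

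Genes of the basic cell machinery had a peak far more often than the genes grouped here as developmental, with promoters of the same class. The developmental group also counts 90 genes of neuronal channel and receptor subunits. Without them its share was 28.8% and the difference from the machinery lists 61.5 points (53.5 to 68.2). Over 9 lists of machinery genes, 288 of 319 genes with a CpG-rich unidirectional promoter had one, or 90.3% (86.5 to 93.1). Over 7 developmental lists it was 63 of 267, or 23.6% (18.9 to 29.0), and over all 10426 genes of the class 61.5%. The difference between machinery and developmental lists was 66.7 points (60.1 to 72.1), and 64.6 points (56.5 to 72.6) within strata of GC and CpG ratio. Genes were also split by the ETS word. Of genes without CCGGAAG, 203 of 224 machinery genes (90.6%) and 62 of 260 developmental genes (23.8%) had a peak, a difference of 66.8 points (59.6 to 72.5). Of genes with it, 85 of 95 machinery genes (89.5%) and 1 of 7 developmental genes (14.3%) had one, a difference of 75.2 points (37.4 to 87.8). In neither group was the share higher with the word, though only 7 developmental genes held it. The word itself was in 29.8% of the machinery and 2.62% of the developmental promoters. When a TSS covered by a peak was counted instead of a midpoint, the shares were 94.7% and 34.8%.

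**Figure D5:**
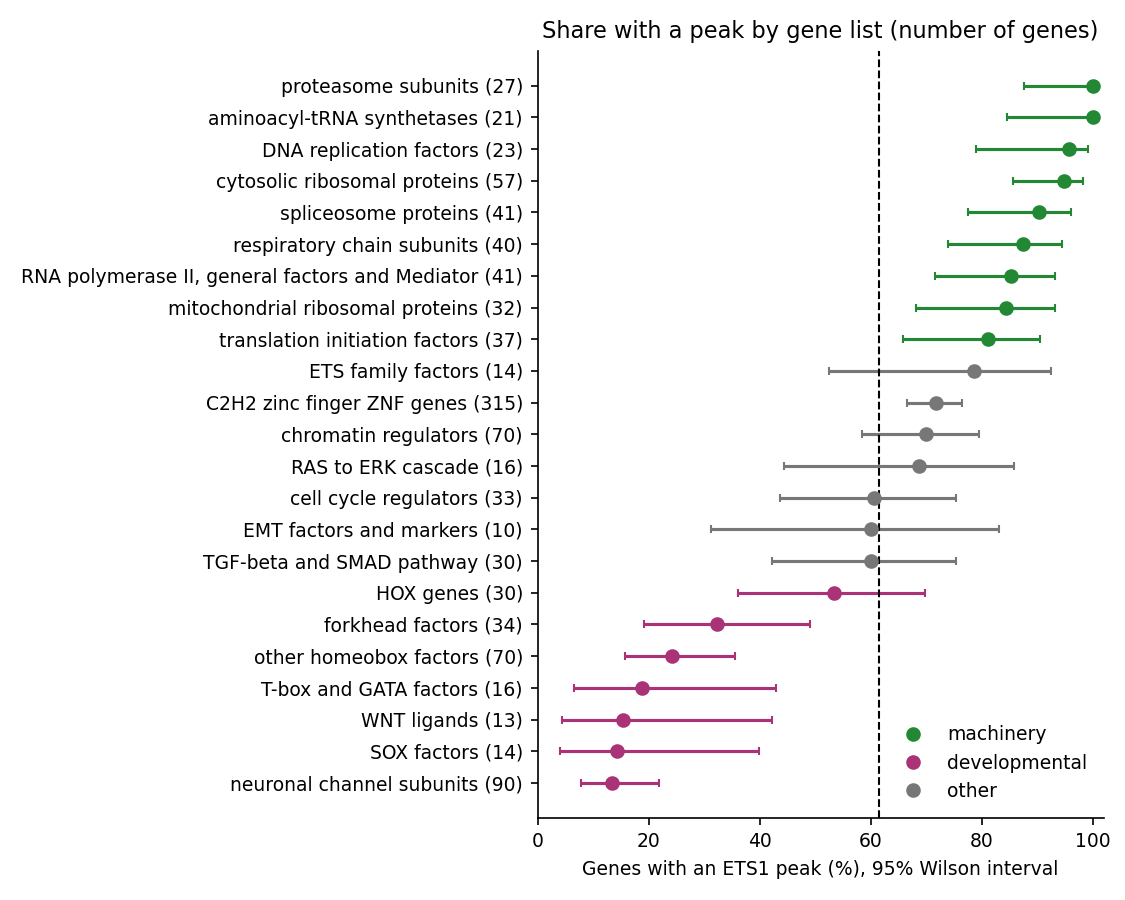
Share of genes with an ETS1 peak (percent, with 95% Wilson intervals) among the genes of each list that have a CpG-rich unidirectional promoter, with their number in parentheses. Green marks machinery, purple developmental and grey other lists, the dashed line is the 61.5% of all 10426 genes of the class, and all machinery lists lie above all developmental lists.

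Each of the machinery lists was above the share of the class. All 27 genes of proteasome subunits and their chaperones and all 21 genes of aminoacyl-tRNA synthetases had a peak (intervals from 87.5% and 84.5% up). So had 22 of 23 DNA replication factors, 54 of 57 cytosolic ribosomal proteins, 37 of 41 spliceosome proteins, 35 of 40 respiratory chain subunits, 35 of 41 genes of RNA polymerase II, its general factors and Mediator, 27 of 32 mitochondrial ribosomal proteins and 30 of 37 translation initiation factors. All of these intervals lay above 61.5%. Among machinery genes with a peak, examples with several copies of CCGGAAG, taken in the order of symbols where numbers tied, were RPL29 and RPL6, MRPL20 and MRPL53, PSMF1, SF3A3 and SF3B2 of the U2 particle of the spliceosome, CARS1 and GTF2F1, MED15, COX5B and POLA1 with 2 copies each, and PSMG3 with 3. Their midpoints lay between -426 bp (GTF2F1) and 311 bp (PSMF1) of the TSS.

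The machinery genes without a midpoint fell into different kinds. At the spliceosome gene PRPF6, the mitochondrial ribosomal genes MRPL23 and MRPL41 and the licensing factor CDT1, the nearest midpoint was 1367, 548, 516 and 575 bp away and its peak was 1224 to 3931 bp wide. Each of these peaks covered the TSS. Some machinery genes without a midpoint held several copies of CCGGAAG, 3 each in MRPS34 and SF3B6 and 2 each in PRPF6, MRPL23, UQCR11 and EIF3L. In PRPF6 and MRPL23 the copies lay inside the covering peak. At EIF3C, a scaffold subunit of eIF3, the nearest midpoint was 112107 bp away, and 100% of the 50-base windows around the TSS occurred elsewhere in the genome too. At RPL14 (47573 bp), the Mediator kinase-module subunit MED12 (22492 bp) and its paralogue MED12L (47685 bp), and EIF1AX (125374 bp), no peak was near.

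Among developmental genes, the HOX genes had the highest share, 16 of 30 or 53.3% (36.1 to 69.8), which differed from that of the other genes of the class by less than counting error (-8.14 points, -25.4 to 8.32). The other 6 lists lay below the class, intervals included, when midpoints were counted. Counted by covered TSSs, forkhead factors reached 58.8% (20 of 34), near the 60% of HOX genes and the 68.8% of the class. Other homeobox factors then had 41.4%, WNT ligands 38.5%, T-box and GATA factors 25%, SOX factors 21.4% and neuronal channel subunits 15.6%. No intervals were computed for these covered shares. By cluster, a grouping made after the values were seen, peaks were at 8 of 10 HOXA genes, 2 of 4 HOXB, 3 of 7 HOXC and 3 of 9 HOXD. Forkhead factors had a peak at 11 of 34 genes (32.4%, 19.1 to 49.2), with FOXC1 and FOXD1 among them and FOXA2 and FOXA3 not. Other homeobox factors followed with 17 of 70 (24.3%, 15.8 to 35.5), T-box and GATA factors with 3 of 16, WNT ligands with 2 of 13 and SOX factors with 2 of 14. The lowest share was that of ion channel and receptor subunits of neurons, 12 of 90 (13.3%, 7.79 to 21.9), where CACNB1 and CACNB3 had a peak and CACNA1A and CACNA1B did not.

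Some developmental genes with a peak had wide ones, and others, as BARHL1 (762 bp) and CACNB1 (1272 bp), had peaks below the member median of 1354 bp. Widths of the developmental peaks were not compared as a set. Both SOX genes, SOX9, a factor of cartilage and of stem-like epithelial cells, and SOX12, had midpoints inside the gene at 289 and 255 bp, in peaks of 3015 and 4411 bp. The WNT genes with a peak were WNT7B (5176 bp wide) and WNT2B (1592 bp), and the T-box genes TBX3 (3017 bp), TBX21 (1080 bp) and TBX6. Of the 63 developmental genes with a peak, 1 held CCGGAAG between -200 and +100 bp. It was EN1, a homeobox factor of the midbrain, whose midpoint lay 500 bp upstream of the TSS. Genes without a peak were often far from any, as SOX11 (1173356 bp), CACNA1B (259481 bp) and WNT11 (238725 bp). At others the TSS was inside or beside a wide peak, as at FOXA2 (546 bp), HOXA10 (1274 bp) and HOXA3 (1410 bp).

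C2H2 zinc finger genes named ZNF had a peak at 226 of 315 genes, or 71.7% (66.5 to 76.4), 10.6 points above the other genes of the class (5.32 to 15.4), and CCGGAAG was in 36.8% of their promoters, against 36.6% for the spliceosome list and 15.8% for the class. ZNF197 with 3 copies and ZNF184 with 2 had a peak, while ZNF787 with 3 and ZNF251, ZNF578 and ZNF582 with 2 had none. ZNF124 had a copy 8 bp before the TSS and none, and 78.1% of its windows were repeated in the genome. Chromatin regulators had a peak at 49 of 70 genes (70%), RAS to ERK genes at 11 of 16, cell cycle regulators at 20 of 33, the TGF-beta and SMAD pathway at 18 of 30, and EMT factors and markers at 6 of 10. None of these 5 lists differed from the other genes of the class beyond counting error. Counted by covered TSSs, the shares in that order were 75.7%, 75%, 78.8%, 73.3% and 70%, against 68.8% of the class. The TGF-beta receptor genes TGFBR1, TGFBR2 and TGFBR3 had a peak, as had ACVR1 and ACVR1B of the activin and BMP receptors, while ACVR2B and BMPR1B had none. Within the ETS family, 11 of 14 genes had one (78.6%, 52.4 to 92.4), with ELK4 and ETV7 each holding 1 copy, and ELF4, ETV4 and FEV did not, a share that was not different from the other genes of the class beyond counting error (17.1 points, -9.03 to 31.0). The ETV4 TSS nevertheless lay inside a peak of 2805 bp with its midpoint 868 bp downstream. By covered TSSs the ETS family share was 12 of 14, or 85.7%.

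A hand-made list of 16 genes, ETS1 and genes of squamous cancer and mesenchymal cells among them, held 9 with a CpG-rich unidirectional promoter. A member peak was at 3 of the 9, against 61.5% of the class, and the list is too small and too selected to read a share from. The 3 were SOX9, CD44, a cell surface receptor of hyaluronan (midpoint at 163 bp, 1671 bp wide), and F3, which encodes tissue factor (162 bp, 2013 bp wide). At EGFR, the cadherin gene CDH2, ANO1 and WNT7A, the midpoint lay 771, 542, 661 and 626 bp downstream of the TSS in peaks of 3138, 2468, 4669 and 2894 bp that reached over the TSS. At VEGFA and CCND1 the midpoints were 1351 and 1979 bp downstream, in peaks of 4780 and 6277 bp that also covered the TSS. None of these 9 promoters had CCGGAAG between -200 and +100 bp. The ETS1 promoter itself was not of this class, with a GC content of 40.8% at the canonical TSS.

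Sites were densest in the 8 member peaks with most CCGGAAG at the midpoint, each with 3 copies in 200 bp. They were at CHKB, which makes phosphocholine, EXOC3 of the exocyst, MYL12B, VMA21, MTG2 and MTERF4 of mitochondrial ribosome assembly, SLX9 of ribosome assembly, and TPRKB. Their midpoints were at -1, -7, 14, -26, -30, -105, -35 and -111 bp in that order, and their widths from 683 bp (MTERF4) to 2107 bp (EXOC3). In MYL12B all copies lay on the antisense strand at -51, -39 and -27 bp, and in VMA21 at -34, -15 and 4 bp, evenly spaced in each.

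Peaks with sites stood nearer the top of the list. No source used here says what orders the list, which is not sorted by position. Its first 10% held 9.99% of the 4876 member peaks without CCGGAAG from -200 to +100 bp, 20.1% of the 1056 with 1 copy and 38.6% of the 223 with 2. Of the 38 with 3 or more copies it held 39.5%. Peaks with a copy were not wider, with medians of 1393.5 bp without, 1217 bp with 1, 1206 bp with 2 and 1305 bp with 3 or more. These contrasts were not separated from GC. At 55 to 60% GC, 32.4% of member peaks had a copy and 17.8% were in the first 10%, against 10.3% and 4.26% at 75 to 85% GC. Overall 12.9% of member peaks were in the first 10% of the list and 5.20% in the last, against 7.57% and 13.02% of distal peaks.

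Chromosome X had the lowest share. A peak was at 130 of its 356 CpG-rich unidirectional promoters, or 36.5% (31.7 to 41.6), against 62.3% on the autosomes, which ranged from 49.6% (chromosome 4) to 68.5% (chromosome 12). The difference was -25.8 points (-30.7 to -20.6). It was -22.3 points (-37.5 to -9.04) among promoters with CCGGAAG and -25.1 (-30.2 to -19.6) among those without.

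Promoters mostly in repeated sequence had almost no peaks. The authors discarded reads that mapped to more than 1 place. Of 96 windows of 50 bases taken every 10 bases within 500 bp of each TSS, more than 50% occurred again in the genome at 139 promoters, and 5 of these had a peak, or 3.60% (1.55 to 8.14). At the 9066 promoters without a repeated window the share was 61.8% (60.8 to 62.8), and at the 1179 with some but at most 50% repeated it was 65.6% (62.9 to 68.3). With the 139 left out, the share of the class was 62.2% and the machinery genes stood 67.8 points above the developmental genes (61.3 to 73.2). Among the 31 machinery genes without a midpoint 4 were of this kind, and among the 204 developmental genes 0.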

How the data were processed

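ETS1 ChIP-Seq of SCC25 cells gave 3 samples, which the authors aligned to hg19, keeping reads with a single location. The submitters' processing notes name Bowtie 1.1.1 and SAMtools 1.3. The authors called peaks with MACS2 against input and merged the samples into 1 IDR list. The deposited values are positions only (chromosome, start and end, 1-based here), with no score. The order of the list is not given in the sources used here.

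TSSs were those of canonical protein-coding transcripts in GENCODE 44 on GRCh37. GC content and CpG ratio were taken over 1000 bp at each TSS. Words were searched on both strands from -200 to +100 bp, where the whole word had to lie inside, or in 200 bp at the peak midpoint. Positions of sites are those of the centre, which also decided whether a copy lay within 500 bp of the TSS. Shares have 95% Wilson intervals and differences Newcombe intervals, both for counting error only. Stratified differences weight strata of GC (2 points) and CpG ratio (0.1). No test between samples was possible.

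The members and lists were chosen with earlier results of these data known. Genes were named by rule: from each list the 2 with most CCGGAAG among those with a peak and the first 2 by symbol without, the 8 peaks with most sites at the midpoint, the 5 widest and 5 narrowest, promoters with most peaks, those nearest each threshold, and a hand-made list of 16 genes. Some items that this rule names are not reported here. NR1H2, TBX6, FEV, the TGF-beta receptors, genes with several sites and no peak, and the HOX clusters were singled out after values were seen. Sequences were read with pysam 0.24.0, intervals computed with scipy 1.17.1, numpy 2.4.6 and pandas 2.3.3 under Python 3.11.15, and plots drawn with matplotlib 3.10.9, and the scripts were tested on simulated data. Alternatives covered distance, class thresholds, windows, words, list order and repeated sequence.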

Additional observations from a re-analysis of the deposited data

How the results depend on the processing

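The list is pooled over all samples, so no sample could be left out. No paired analysis was possible because the pooled list has no value per sample. Of 77 alternative values, 43 moved by less than the counting interval or 1.5 times and 34 by more, and none changed direction. The share of the class with a peak was 44.8% for midpoints within 250 bp, 69.0004% within 1000 bp, 70.6% for a peak overlapping the 500 bp either side, 68.8% for a peak covering the TSS, 59.03% without any opposite-strand TSS and 37.6% in the first 50% of the list. Member peaks numbered 3853 at a GC of at least 60% with a CpG ratio of at least 0.75, and 3776 in the first 50%. The difference in CCGGAAG share was 19.2 points from -500 to +500 bp, 12.2 from -100 to +50 bp, 13.4 stratified, 7.63 for CCGGAAGT, 20.99 for CGGAAG, 20.5 in the first 50% and 12.2 under the stricter thresholds. The median offset was 95 bp under the stricter thresholds, 75.5 bp in the first 50%, 56 bp within 250 bp and 101 bp within 1000 bp, and the median width 1475, 1374.5, 1274 and 1397 bp. The share with a site near the midpoint was 5.47% in 100 bp, 27.03% in a window 3 times as wide as the 200 bp used, 39.4% in the whole peak, 4.49% for CCGGAAGT, 21.9% for CGGAAG, 84.01% for GGAA and 14.3% in the first 50%. The sense share was 52.4% from -500 to +500 bp and 58.9% for CCGGAAGT. Machinery genes exceeded developmental genes by 59.96 points within 1000 bp and by 59.8 points for covered TSSs, and by 61.5 to 70.5 points when 1 list was left out. The omission of repeated promoters, and covered TSSs for the CCGGAAG and list differences, were chosen after seeing the data. The cause of these moves was not tested, beyond the wider or narrower window, word or distance itself.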
